A study of Rattus norvegicus with 44 samples.

Results

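The receptors through which neural cells sense transmitters were followed in 5 rat neural precursor clones as the cells left the dividing state. A gene was included when it was the only gene of a probe set in the platform annotation and its symbol marked it as a subunit or receptor for glutamate (Gria, Grik, Grin and Grm genes), GABA (Gabr and Gabbr), glycine (Glra and Glrb), acetylcholine (Chrn and Chrm), serotonin (Htr), dopamine (Drd) or noradrenaline and adrenaline (Adra and Adrb). The rule used names and no measured values, and it found 92 of the 12749 genes measured. They were 4 AMPA, 5 kainate, 7 NMDA and 7 metabotropic glutamate receptor genes, 15 GABA-A and 2 GABA-B genes, 4 glycine receptor genes, 16 nicotinic and 5 muscarinic genes, 14 serotonin, 5 dopamine and 8 adrenergic receptor genes. Each gene was read from the probe set with the highest mean log2 intensity, and 28 of the 92 had further probe sets. Receptor genes outside these 92 were not analysed here.

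The study grew each clone on poly-lysine and laminin in a medium with FGF2, a growth factor that keeps neural precursors dividing, and then withdrew FGF2. Differentiation took place in B27-supplemented medium with a little fetal bovine serum, so that all day 3 and day 7 cultures share that medium and all day 0 cultures the one with FGF2. The labels describe Ge6 as a GABAergic neuronal precursor clone, L2.2 as an interneuronal precursor clone, Ctx8 and L2.3 as multipotential clones and Ge2 as a nonneuronal clone. Each label stands for a single clonal line, so a value describes that line and not its class, and the 3 arrays of a clone and day were sister cultures. L2.2 at day 0 had 2 arrays. RNA of every culture was measured on 1 Affymetrix array, 44 in all.

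Ionotropic receptors are channels built from several subunits that open when a transmitter binds, and metabotropic receptors signal through G proteins. AMPA, kainate and NMDA receptors carry fast excitation by glutamate, whereas GABA-A and glycine receptors are chloride channels that mediate fast inhibition in mature neurons. Receptors of several classes are known to be present in dividing neural precursors before synapses form, and GABA-A receptors with AMPA receptors are found on glia as well as on neurons.

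Receptor RNA was a small and mostly dim part of what the arrays read. A gene was counted as above the floor in a group when its mean intensity passed 16.3, the 40th percentile of all values, which is a filter value and no measure of array background. Of the 92 receptor genes, 31 passed it in at least 1 of the 15 groups and 61 in none. In a single group between 9 and 22 receptor genes passed, or 9.78% to 23.9% of them, against 65.1% to 66.9% of all genes. Gria2, Grik5, Gabrd and Gabbr1 passed in all 15 groups. All 4 AMPA and both GABA-B genes passed somewhere, as did 3 of 5 kainate, 3 of 7 NMDA, 1 of 7 metabotropic glutamate, 3 of 15 GABA-A, 2 of 4 glycine, 5 of 16 nicotinic, 2 of 5 muscarinic, 4 of 14 serotonin and 2 of 8 adrenergic genes. None of the 5 dopamine receptor genes passed: their highest group means were 14.3 for Drd1, 14.4 for Drd2, 12.3 for Drd3, 13.2 for Drd4 and 11.4 for Drd5.

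**Figure D1:**
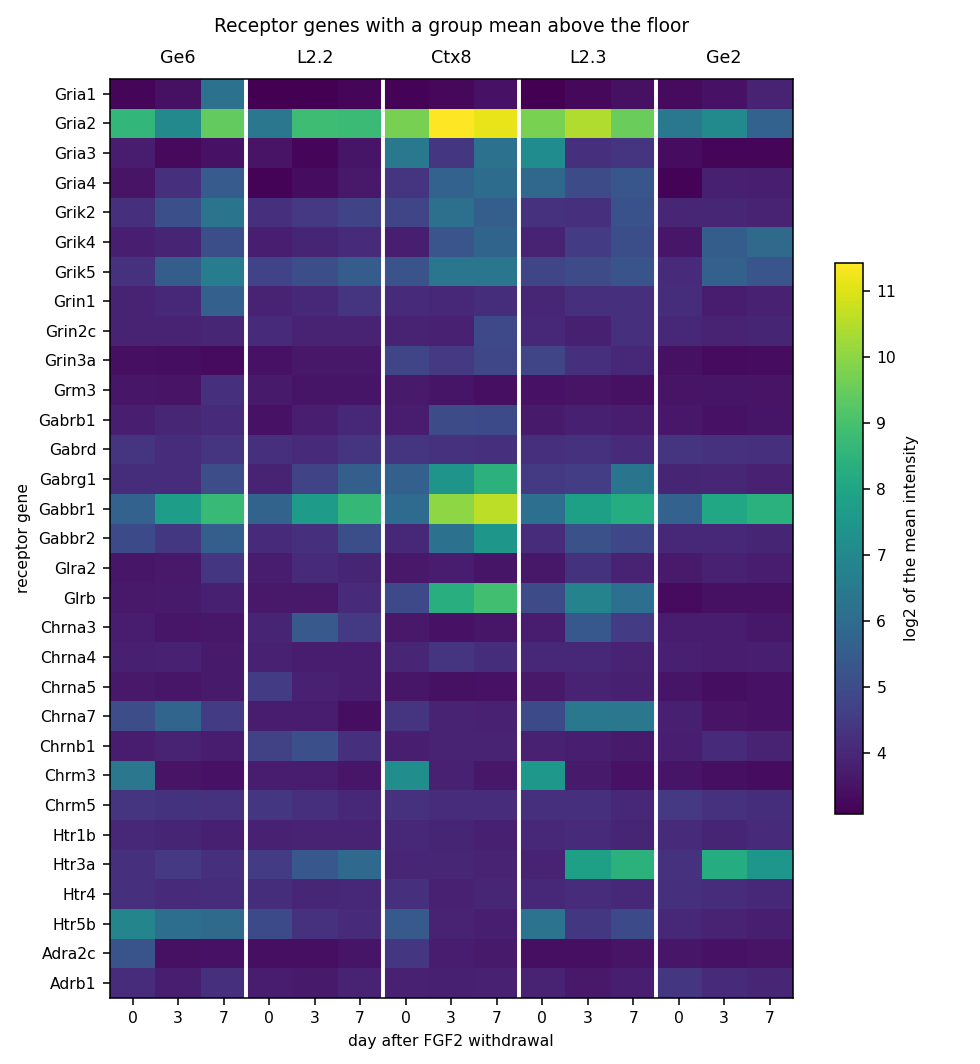
Mean intensity on a log2 scale (colour) of the 31 receptor genes above the floor in at least 1 group, in rows by family, across the 15 groups of clone and day in columns, the days running 0, 3 and 7 within each clone. Gria2 and Gabbr1 are bright across the clones, whereas Chrm3 is bright at day 0 in Ge6, Ctx8 and L2.3 and dim elsewhere.

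The arrays agreed closely within groups (r of log2 intensity 0.992 to 0.998 over 43 pairs) and less between groups (0.876 to 0.992 over 903 pairs). The neuron marker list, all 15 genes of which were measured, summed per array to 13662 to 13866 in Ge6 at day 7 and to 1714 to 1924 at day 0. At day 7 the sum was 9472 to 11050 in L2.2, 5488 to 5869 in Ctx8, 7259 to 7673 in L2.3 and 1546 to 1658 in Ge2. The GABAergic list (5 of 6 genes measured) at day 7 reached 6723 to 7336 in Ge6 and 2205 to 2477 in L2.2. It summed to 885 to 1007 in Ge2, 766 to 830 in Ctx8 and 55 to 65 in L2.3. All 5 genes were above the floor in Ge6, L2.2 and Ctx8 at that day, but 2 in Ge2 and 1 in L2.3. The astrocyte list (10 genes) summed to 20175 to 21044 in Ctx8, 15935 to 22664 in L2.3 and 14237 to 15159 in Ge2. It summed to 6056 to 8698 in L2.2 and 2017 to 2197 in Ge6, all at day 7. The oligodendrocyte list (11 of 12 measured) summed to 12955 to 13687 in Ctx8 and 4032 to 4740 in L2.3 at that day. Its sums were 1345 to 2154 in L2.2, 898 to 957 in Ge6 and 360 to 379 in Ge2. The mesenchyme list summed to 2348 to 2640 in Ge2 and 286 to 312 in L2.2 at day 7. In L2.2 it was higher before, at 499 to 553 at day 0 and 918 to 999 at day 3. It stayed at or under 87 in the other clones. Lists for microglia, endothelium and Schwann cells stayed at or under 117 in every array. In bulk cultures such as these, fewer cells of a type and less RNA per cell cannot be told apart, and the part of these marker shifts in the receptor results was not tested.

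A gene was called when limma, fitted over all 12749 genes and 15 groups, gave a Benjamini-Hochberg adjusted p under 0.05. At day 3 after FGF2 withdrawal, 11 of the 92 receptor genes were higher than at day 0 in Ge6 and 10 lower, where 20.4% of all genes were called higher and 28.6% lower, 49% in all. In L2.2 the counts were 9 higher and 6 lower, against 19.7% and 27.7% of all genes (47.4% in all), and 7 in place of 15 were called without day 0 replicate 3. Ctx8 had 11 higher and 8 lower (23.9% and 29.7% of all genes, 53.6% in all), L2.3 10 and 7 (20% and 26.2%, 46.2% in all) and Ge2 8 and 7 (27.5% and 32.4%, 60% in all). By day 7, 15 receptor genes were higher and 5 lower than at day 0 in Ge6, against 24% and 35% of all genes (58.9% in all). L2.2 had 11 higher and 8 lower (21.4% and 30.3%, 51.8% in all) and Ctx8 13 and 7 (24.9% and 30.9%, 55.9% in all). L2.3 had 11 and 8 (21.9% and 26.9%, 48.8% in all) and Ge2 6 and 6 (27% and 33.3%, 60.3% in all). In every clone at both days the share of receptor genes called was below the share of all genes called, and the difference of shares was not tested. The median day 7 change of the 92 genes was 0.01 in Ge6, -0.05 in L2.2, -0.07 in Ctx8, -0.04 in L2.3 and -0.06 in Ge2 on the log2 scale, beside -0.06, -0.07, -0.06, -0.05 and -0.06 for all genes. The comparisons of days 3 and 7 in a clone share its day 0 arrays.

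**Figure D2:**
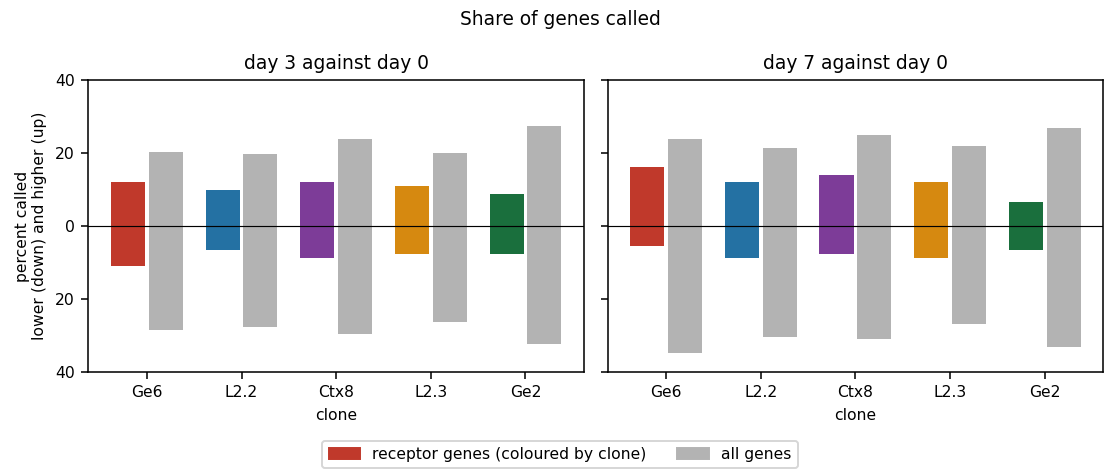
Percentage of the 92 receptor genes (coloured) and of all 12749 genes (grey) called higher (upward) or lower (downward) at day 3 and day 7 against day 0, by clone. Ge6 at day 7 has 15 receptor genes called higher and 5 lower, and the receptor share is below that of all genes called in either direction in all 10 comparisons. Of the 92 receptor genes, 61 were above the floor in no group.

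Direction was sensitive to how the arrays were scaled. When every array was scaled to a common median, the middle change over all genes at day 7 moved by between -0.105 and -0.164 on the log2 scale, and calls turned toward lower for receptor genes and for all genes. The day 7 split of receptor genes became 14 higher and 18 lower in Ge6, where 19.5% of all genes were then higher and 49.4% lower, and 9 and 27 in L2.2 (17.2% and 41.7% of all genes). It became 11 and 45 in Ctx8 (19.8% and 50.6%), 11 and 25 in L2.3 (17.9% and 39.7%) and 6 and 34 in Ge2 (22.9% and 48.1%). At day 3 the split became 5 and 24 in L2.2 (14.8% and 41.9% of all genes), 10 and 31 in Ctx8 (19.7% and 46.4%) and 6 and 31 in Ge2 (22.1% and 46.9%). As deposited, called changes of at least 2-fold at day 7 were 7 higher and 2 lower of 92 in Ge6, beside 8.95% and 12.2% of all genes, and 5 and 0 in L2.2 (6.35% and 5.92%). They were 10 and 2 in Ctx8 (8.29% and 7.91%), 6 and 3 in L2.3 (6.1% and 3.84%) and 4 and 0 in Ge2 (10.4% and 11.6%), and the differences of shares were not tested. Gabbr1 and Grik5 rose in all 5 clones by day 7. Gria1, Gria4, Grik2, Grik4, Gabrg1 and Gabbr2 were called higher in 4 clones, and Htr5b was called lower in 4. Among these, the Gria1 calls in Ctx8 and L2.3 and the Grik2 call in L2.2 were lost without some single array. The Gria1 calls outside Ge6 and the Gria4 calls in L2.2 and Ge2 concerned means below the floor. The matching shares of all genes called in as many clones are not given here.

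**Figure D3:**
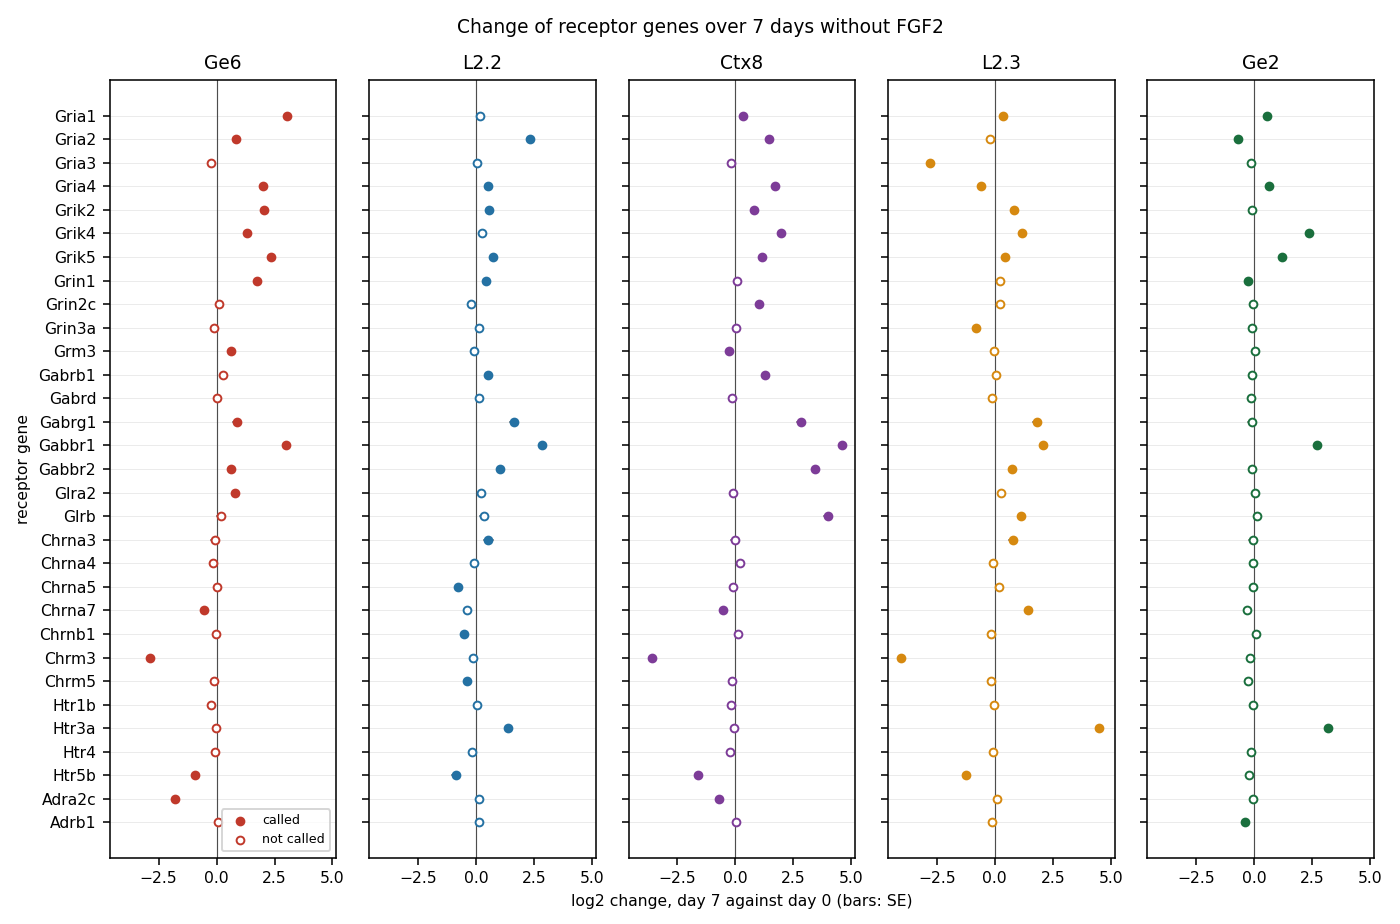
Change at day 7 against day 0 (log2, with SE bars mostly smaller than the points) for receptor genes above the floor, by clone; filled points were called by limma and open points were not. Gabbr1 is to the right in all 5 clones, Htr3a is to the right in L2.2, L2.3 and Ge2, and Chrm3 is far to the left in Ge6, Ctx8 and L2.3.

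AMPA receptor subunits behaved differently from clone to clone. Gria2, whose edited subunit keeps AMPA channels from passing calcium, was above the floor in all groups. In Ge6 its 3 arrays read 477, 348 and 339 at day 0, 128, 123 and 134 at day 3 and 682, 698 and 665 at day 7. The day 3 arrays lay below and the day 7 arrays above all day 0 arrays. The log2 change was -1.58 ± 0.17 (SE) at day 3 and 0.83 ± 0.17 at day 7 against day 0 (limma, adjusted p 3.88e-10 and 4.38e-05), and 2.41 ± 0.17 at day 7 against day 3. In L2.2, Gria2 read 99.4 and 68.7 at day 0, 494, 422 and 454 at day 3 and 596, 402 and 313 at day 7, a rise of 2.46 ± 0.19 at day 3 and 2.35 ± 0.19 at day 7 with no overlap with day 0. Ctx8 read 824, 844 and 847 at day 0, 2834, 2716 and 2693 at day 3 and 2171, 2333 and 2367 at day 7. Its rise was 1.71 ± 0.17 at day 3 and 1.45 ± 0.17 at day 7. L2.3 read 1009, 713 and 882 at day 0, 1386, 1364 and 1425 at day 3 and 767, 726 and 722 at day 7. Gria2 was thus above its day 0 range only at day 3 in this clone (0.70 ± 0.17), and the day 7 change of -0.22 was not called. Ge2 read 110.3, 80.6 and 66.0 at day 0, 146, 128 and 123 at day 3 and 61.0, 52.7 and 42.5 at day 7. Its day 3 arrays were all above day 0, and that rise was called. The day 7 arrays were all lower than day 0, a change of -0.70 ± 0.17 (limma, adjusted p 0.000395). The second Gria2 probe set gave 0.25 ± 0.14 in Ge2, which was not called, and 1.89, 2.96, 1.82 and 0.01 in Ge6, L2.2, Ctx8 and L2.3, so the Ge2 fall rests on 1 probe set.

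Gria1, the subunit best known for its insertion into synapses during long-term potentiation, was a late gene of Ge6. The Ge6 arrays read 9.46, 8.66 and 9.21 at day 0, 10.5, 11.6 and 10.6 at day 3 and 88.2, 67.9 and 68.9 at day 7. All day 0 and day 3 values are below the floor and all day 7 values are well above it. The rise at day 7 was 3.03 ± 0.11 against day 0 (adjusted p 5.85e-23) and 2.77 ± 0.11 against day 3. Group means in the other clones ran from 8.48 to 15.2, so Gria1 was higher in Ge6 than in the mean of the 4 others at day 7 by 2.70 ± 0.09. Its day 7 change in Ge6 exceeded the mean change of the others by 2.68 ± 0.13 (adjusted p 2.2e-19). Small rises below the floor were called in Ge2 (0.57, and 0.37 without day 7 replicate 1), L2.3 (0.36) and Ctx8 (0.32). The L2.3 call was lost without its day 7 replicate 2 (0.29) and the Ctx8 call without its day 0 replicate 1 or day 7 replicate 1 (0.26 and 0.25).

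Gria3 and Gria4 completed the family. Gria3 was read above the floor in L2.3 and Ctx8 only. In L2.3 it read 147, 113 and 163 at day 0, 16.3, 19.0 and 21.0 at day 3 and 20.8, 18.5 and 21.0 at day 7, a fall of 2.90 ± 0.14 at day 3 and of 2.80 ± 0.14 at day 7 on the log2 scale. The day 7 fall was 1.98 by the second probe set. In Ctx8 it dipped and returned, with 84.4, 88.3 and 85.1 at day 0, 23.1, 22.6 and 17.5 at day 3 and 85.3, 73.5 and 66.9 at day 7. The day 3 change in Ctx8 was -2.04 ± 0.14, the day 7 change of -0.20 was not called, and the rise at day 7 against day 3 was 1.84 ± 0.14 (adjusted p 5.28e-13). Gria4 moved in opposite directions between clones. It was 44.9 ± 2.7 in Ge6 at day 7 against 11.4 ± 1.4 at day 0 (SD, n = 3 each), a rise of 1.99 ± 0.12, and 66.1 ± 5.2 against 20.3 ± 1.6 in Ctx8, a rise of 1.71 ± 0.12. In L2.3 it was 39.4 ± 5.6 at day 7 against 60.0 ± 6.2 at day 0, a change of -0.61 ± 0.12. The other Gria4 probe sets gave smaller changes of the same sign, 0.73 and 1.11 in Ge6, 0.61 and 0.25 in Ctx8 (0.25 not called) and -0.50 and -0.38 in L2.3. Calls of 0.65 in Ge2 and 0.51 in L2.2 concerned means below the floor and were not shared by the other probe sets.

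**Figure D4:**
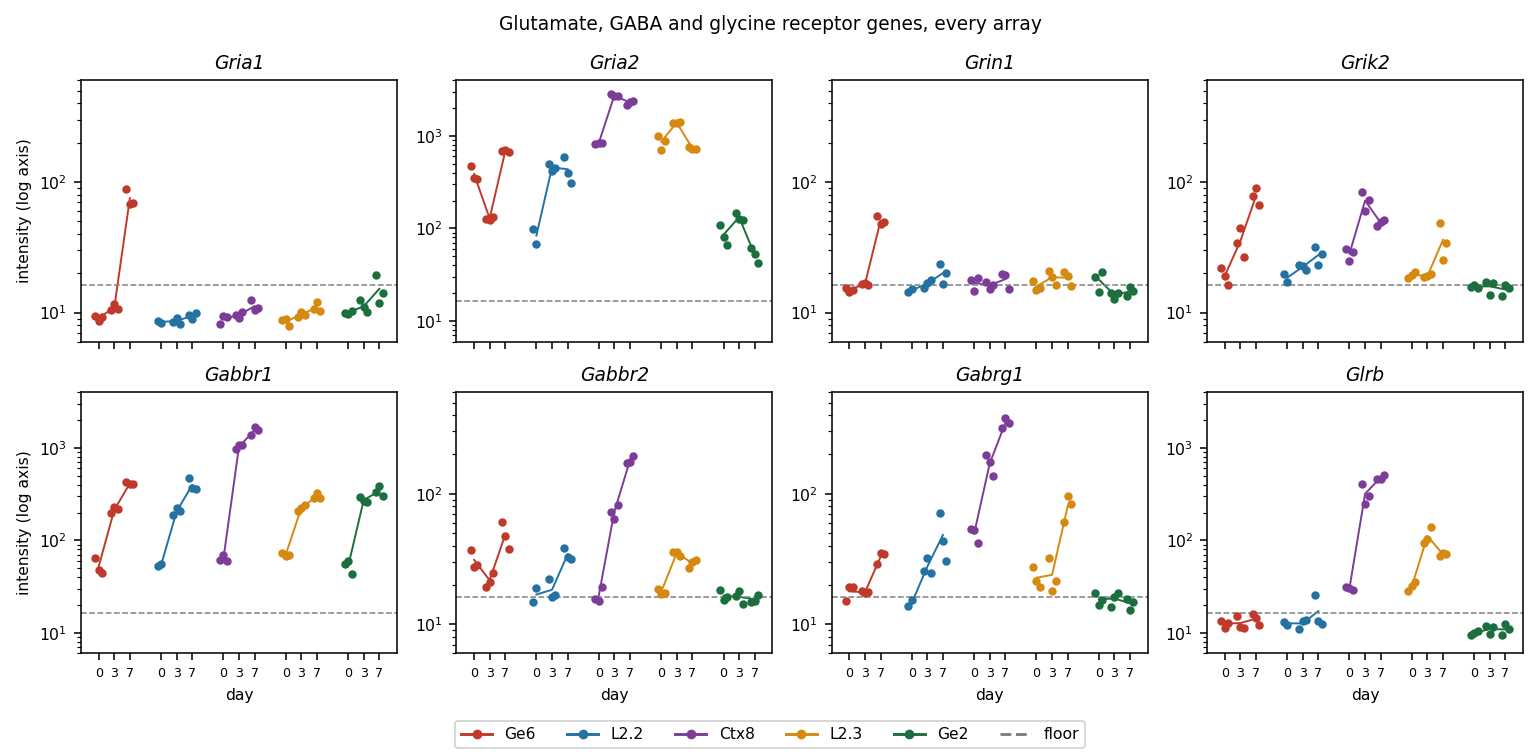
Intensity (log axis) of every array at days 0, 3 and 7, by clone, for 8 receptor genes that rose in at least 1 clone, with lines through the group means and the floor of 16.3 dashed. Gria2, Gabbr1 and Glrb have a longer axis than the others. Gria1 passes the floor in the mean of Ge6 at day 7 only, Grin1 reaches 50.5 there and at most 20 in the mean of any group of the other clones, and Glrb reaches 479.8 in Ctx8.

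Of the 5 kainate receptor genes, 3 were called higher at day 7 in Ge6, Ctx8 and L2.3 and 2 in L2.2 and Ge2. The shares of all genes called higher were 24% in Ge6, 24.9% in Ctx8, 21.9% in L2.3, 21.4% in L2.2 and 27% in Ge2. The differences of shares were not tested. Grik5, a subunit that forms channels only together with Grik1 to Grik3 products, increased in every clone. In Ge6 it read 21.4, 17.2 and 18.8 at day 0, 46.4, 45.2 and 47.2 at day 3 and 91.7, 94.9 and 103 at day 7, without overlap between days. The Ge6 rise was 1.28 ± 0.10 at day 3 and 2.34 ± 0.10 at day 7. At day 7 the Grik5 rise was 1.18 ± 0.10 in Ge2, 1.16 ± 0.10 in Ctx8, 0.73 ± 0.11 in L2.2 and 0.43 ± 0.10 in L2.3 (adjusted p 0.000473). The smaller L2.2 rise at day 3 (0.34) was lost without day 0 replicate 3 or day 3 replicate 2 (0.22 and 0.29).

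Grik4, a subunit of the same high-affinity class, rose in 4 clones, Ge2 among them. Ge2 read 11.2, 13.9 and 11.3 at day 0, 43.1, 46.4 and 50.4 at day 3 and 53.7, 59.3 and 74.3 at day 7. All later arrays were above all day 0 arrays, and the change was 1.95 ± 0.14 at day 3 and 2.36 ± 0.14 at day 7. Grik4 rose by 1.97 ± 0.14 in Ctx8, 1.30 ± 0.14 in Ge6 and 1.19 ± 0.14 in L2.3 at day 7, while the L2.2 change of 0.27 was not called. Grik2, a subunit that forms functional channels alone, was 77.9 ± 11.9 in Ge6 at day 7 against 19.1 ± 2.9 at day 0 (SD, n = 3 each), a rise of 2.03 ± 0.17. In Ctx8 it read 30.6, 24.9 and 29.2 at day 0, 83.8, 59.4 and 72.3 at day 3 and 45.8, 49.1 and 51.4 at day 7, so the day 3 arrays were the highest. The Ctx8 rise was 1.34 ± 0.17 at day 3 and 0.79 ± 0.17 at day 7, and the fall of 0.55 on the log2 scale at day 7 against day 3 was lost without day 3 replicate 1 or day 7 replicate 1 (-0.43 and -0.50). Grik2 rose by 0.83 ± 0.17 in L2.3 at day 7. A call of 0.57 in L2.2 was lost without day 0 replicate 3 or day 7 replicate 1 (0.47 and 0.46), and Ge2, at 15 to 15.9 in the mean, showed no call. Grik1 and Grik3 stayed below the floor, and the 1 kainate gene called lower than at day 0 was Grik3 in Ge6 at day 7 (-0.29), a call lost without day 0 replicate 1 or 2 (-0.24 and -0.21).

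Among NMDA receptor genes, Grin1 encodes the subunit that every NMDA receptor needs. It was high in Ge6 at day 7 alone, where the arrays read 15.3, 14.4 and 15 at day 0, 16.4, 16.9 and 16.3 at day 3 and 54.7, 47.7 and 49.0 at day 7. The day 7 rise was 1.76 ± 0.12, and 1.13 ± 0.11 by the second probe set, whereas the day 3 change of 0.15 was not called. Means in the other clones ran from 13.6 to 20. The Grin1 call in L2.2 at day 7 (0.42) was lost without day 0 replicate 1 or day 7 replicate 1 (0.39 and 0.29). In Ge2 the change of -0.29 was lost without day 0 replicate 1 or 3 or day 7 replicate 1 or 3 (-0.24, -0.18, -0.23 and -0.29) and was -0.44 without day 0 replicate 2. Genes for the ligand-binding partners Grin2a, Grin2b and Grin2d were below the floor in all groups. Grin2c, another such partner, averaged 15.1 at day 0 and 14.4 at day 3 in Ctx8, and its arrays read 33.9, 24.6 and 32.5 at day 7. That rise was 1.00 ± 0.11 (adjusted p 1.37e-09), and all other groups lay between 14.1 and 18.5. Grin3a, which lowers calcium entry through NMDA receptors, was above the floor in Ctx8 and L2.3. It read 16.9, 16.3 and 14.9 in L2.3 at day 7 against 30.7, 29.6 and 25.4 at day 0, a change of -0.83 ± 0.12, after a change of -0.61 ± 0.12 at day 3. In Ctx8 Grin3a averaged 28.4 at day 0, 22.2 at day 3 and 28.8 at day 7. The Ctx8 fall at day 3 (-0.37) was lost without day 3 replicate 3 (-0.27), and the return of 0.38 at day 7 against day 3 was lost without day 3 replicate 3 or day 7 replicate 2 or 3 (0.28 to 0.36).

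Of the 7 metabotropic glutamate receptor genes, Grm3, a receptor coupled to inhibition of adenylyl cyclase, passed the floor, in Ge6 at day 7. Its arrays there read 16.2, 18.8 and 22.1, against a mean of 12.1 at day 0, a rise of 0.64 ± 0.09. A call of -0.28 in Ctx8, all below the floor, was lost without day 0 replicate 1 or day 7 replicate 1 (-0.15 and -0.24).

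The GABA-B receptor works as a pair: the Gabbr1 product binds GABA, and the Gabbr2 product carries Gabbr1 to the cell surface and couples to G proteins. Gabbr1 rose in all 5 clones at both days. In Ctx8 it read 61.6, 69.6 and 59.3 at day 0, 964, 1065 and 1066 at day 3 and 1383, 1692 and 1578 at day 7. The groups do not overlap, and the rise was 4.02 ± 0.12 at day 3 and 4.61 ± 0.12 at day 7 (adjusted p 4.29e-27). In Ge6 Gabbr1 read 64.6, 47.5 and 44.6 at day 0, 197, 228 and 216 at day 3 and 430.4, 407 and 402 at day 7, a rise of 3.00 ± 0.12 by day 7. Day 7 means were 396 in L2.2, 301 in L2.3 and 341 in Ge2, against 53.9, 70.5 and 52.5 at day 0, and the rises were 2.87 ± 0.13, 2.09 ± 0.12 and 2.71 ± 0.12. Gabbr1 in Ctx8 exceeded the mean of the other clones by 2.11 ± 0.09 at day 7, and its change exceeded theirs by 1.94 ± 0.13 (adjusted p 2.2e-14). Of its 5 probe sets, the other 2 bright ones rose in all clones by day 7, by 1.62 to 4.77 and by 1.59 to 3.18, but ordered the clones other than Ctx8 differently. The 2 dim ones did not exceed a group mean of 27.9.

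Gabbr2 did not follow in every clone. Ctx8 read 15.5, 15.1 and 19.2 at day 0, 73.2, 63.7 and 82.3 at day 3 and 171, 174 and 196 at day 7, a rise of 3.45 ± 0.14 (adjusted p 1.63e-21). Ge6 read 37.5, 27.5 and 28.7 at day 0, 19.3, 21.3 and 24.9 at day 3 and 60.4, 47.7 and 37.7 at day 7. Its Gabbr2 thus fell by 0.51 on the log2 scale at day 3 and stood 0.63 ± 0.14 above day 0 at day 7. L2.2 averaged 34.3 at day 7 against 16.9 at day 0 (1.03 ± 0.16), and L2.3 29.4 against 17.7 (0.73 ± 0.14). In Ge2 Gabbr2 averaged 15.6 at day 7 and 16.6 at day 0, and the change of -0.09 was not called, in the clone where Gabbr1 rose by 2.71.

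GABA-A receptor genes were mostly dim, with 12 of 15 never above the floor. Gabrg1, a gamma subunit found on glia as well as on neurons, was above the floor in 4 clones. In Ctx8 it read 53.5, 53.0 and 42.0 at day 0, 198, 176 and 137 at day 3 and 319, 381 and 347 at day 7, with no overlap between days and a rise of 1.78 ± 0.21 at day 3 and 2.82 ± 0.21 at day 7. In L2.3 it averaged 22.8 at day 0 and 24 at day 3 and read 61.4, 96.0 and 82.8 at day 7, so its rise of 1.81 ± 0.21 came after day 3. L2.2 Gabrg1 rose by 1.64 ± 0.23 by day 7, with arrays of 70.8, 43.7 and 30.7. Its rise of 0.73 at day 7 against day 3 was lost without day 7 replicate 1 (0.41) or day 3 replicate 3 (0.66). In Ge6 the day 7 rise was 0.88 ± 0.21 (adjusted p 0.000297), and Ge2, at 14.5 to 15.8 in the mean, showed no call. Gabrb1, a beta subunit, was well above the floor only in Ctx8 after withdrawal. It read 13.6, 12.0 and 13.6 at day 0, 29.8, 32.6 and 35.0 at day 3 and 33.7, 29.8 and 30.1 at day 7 there, a rise of 1.31 ± 0.12 and 1.26 ± 0.12. Day 7 means of Gabrb1 in Ge6 (16.9) and L2.2 (16.5) were just over the floor. In L2.2 a Gabrb1 rise of 0.52 at day 7 was 0.34 without day 7 replicate 1. It was not called when only the compared groups were fitted. Gabrd, the delta subunit of extrasynaptic receptors, averaged 17.1 to 20.8 in all groups and was called against day 0 in none.

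The glycine receptor gene Glrb encodes the beta subunit, which anchors the receptor to gephyrin. Ctx8 read 31.3, 30.7 and 29.4 at day 0, 404, 246 and 305 at day 3 and 465, 461 and 513 at day 7. All later arrays were far above day 0, and the rise was 3.36 ± 0.18 at day 3 and 3.98 ± 0.18 at day 7 (adjusted p 4.3e-20). The further rise of 0.62 at day 7 against day 3 was lost without day 3 replicate 2 (0.45). L2.3 peaked at day 3, with 28.5, 32.1 and 35.4 at day 0, 93.0, 103 and 139 at day 3 and 67.2, 73.1 and 70.9 at day 7. Its rise was 1.79 ± 0.18 at day 3 and 1.14 ± 0.18 at day 7, and the change of -0.64 at day 7 against day 3 was lost without day 3 replicate 3 (-0.47). Glrb in the other clones averaged 9.97 to 17.2 with no call against day 0, and the Ctx8 change exceeded the average change elsewhere by 3.53 ± 0.20. Glra2, the ligand-binding alpha subunit of embryonic receptors, read 19.3, 23.6 and 20.6 in Ge6 at day 7 against a mean of 12.1 at day 0, a rise of 0.81 ± 0.13. At day 3 it averaged 19.6 in L2.3 (25, 16.8 and 16.8) against 12.4 at day 0, a rise of 0.63 ± 0.13. It averaged 16.8 in L2.2 at day 3 against 13.2 at day 0, a call of 0.35 that was lost without any one of day 0 replicate 1 or 3 or day 3 replicate 1 or 3 (0.27 to 0.44). Glra1 and Glra3 stayed below the floor.

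The promoters of 4 receptor genes that carry the results, 3 that rose after FGF2 withdrawal and 1 that was lost, are shown because their base composition differs. Each covers 250 bases before to 50 bases after the annotated start, from RefSeq on build GRCr8. Gabbr1 lies at chr20:1499187-1499486 on the minus strand, Glrb at chr2:168505565-168505864 on the minus strand, Gabrg1 at chr14:37750042-37750341 on the plus strand and Chrm3 at chr17:64696677-64696976 on the plus strand. Capitals mark GGGCGG, the GC box, or its reverse complement CCGCCC.
Gabbr1: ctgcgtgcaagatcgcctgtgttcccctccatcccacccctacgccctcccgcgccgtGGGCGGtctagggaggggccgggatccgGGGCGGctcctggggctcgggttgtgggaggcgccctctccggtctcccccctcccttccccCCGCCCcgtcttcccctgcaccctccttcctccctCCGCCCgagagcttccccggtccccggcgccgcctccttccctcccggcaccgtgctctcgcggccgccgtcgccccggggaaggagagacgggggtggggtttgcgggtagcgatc
Glrb: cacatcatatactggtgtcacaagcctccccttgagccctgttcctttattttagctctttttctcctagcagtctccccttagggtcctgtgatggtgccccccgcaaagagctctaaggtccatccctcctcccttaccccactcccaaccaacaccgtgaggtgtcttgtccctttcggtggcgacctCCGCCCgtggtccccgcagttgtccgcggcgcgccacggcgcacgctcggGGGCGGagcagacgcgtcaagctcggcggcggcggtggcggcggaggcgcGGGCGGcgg
Gabrg1: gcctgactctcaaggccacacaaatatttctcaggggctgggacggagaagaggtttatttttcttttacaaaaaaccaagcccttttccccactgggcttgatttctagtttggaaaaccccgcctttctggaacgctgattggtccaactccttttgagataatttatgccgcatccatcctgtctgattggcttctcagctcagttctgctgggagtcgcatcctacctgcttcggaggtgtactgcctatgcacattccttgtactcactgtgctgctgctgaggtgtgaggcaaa
Chrm3: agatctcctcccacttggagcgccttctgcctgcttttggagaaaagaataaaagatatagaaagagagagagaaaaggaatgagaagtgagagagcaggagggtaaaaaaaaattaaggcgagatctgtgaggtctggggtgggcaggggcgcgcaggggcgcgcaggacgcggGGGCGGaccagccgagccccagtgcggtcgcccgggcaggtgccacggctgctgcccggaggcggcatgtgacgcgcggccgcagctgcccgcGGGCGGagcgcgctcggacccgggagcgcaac

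The GC box was present 4 times in the Gabbr1 promoter, 3 times in Glrb, 2 times in Chrm3 and 0 times in Gabrg1. Gabbr1 held 32 CpG sites, Glrb and Chrm3 28 each, and Gabrg1 6. RefSeq promoters were matched for 71 of the 92 receptor genes, and 35 of them (49.3%) held the GC box on either strand, as did 11066 of 33469 rat promoters (33.1%). The count was 15 of 24 (62.5%) for matched receptor genes above the floor in some group and 20 of 47 (42.6%) for those never above it. The median number of CpG sites was 21 in the first set, 10 in the second and 7 in all promoters. The 33469 promoters are a wider set than the 12749 genes measured, and the differences of shares and medians were not tested. These are letters in a window and no measure of binding.

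Of the 16 nicotinic acetylcholine receptor genes, 3 were called higher and 2 lower in L2.2 at day 3 (19.7% and 27.7% of all genes). In L2.3 the day 3 counts were 2 and 1 (20% and 26.2%). At day 7 they were 1 and 3 in L2.2 (21.4% and 30.3%) and 2 and 1 in L2.3 (21.9% and 26.9%). The other clones had at most 1 in each direction, where 20.4% to 27.5% of all genes were higher and 28.6% to 35% lower. The differences of shares were not tested. Chrna3, an alpha subunit of ganglionic-type receptors, read 13.3, 13.3 and 13.2 in L2.3 at day 0, 58.5, 41.0 and 25.4 at day 3 and 25.4, 30.8 and 14.8 at day 7. The day 3 arrays were all above day 0, by 1.57 ± 0.20 in the mean, and the day 7 change was 0.77 ± 0.20. The decline of 0.80 on the log2 scale after day 3 was lost without day 3 replicate 1 (-0.51) or day 7 replicate 3 (-0.49). In L2.2 Chrna3 read 16.2 and 14.5 at day 0, 40.5, 47.2 and 39.1 at day 3 and 23.4, 16.8 and 27.9 at day 7, a rise of 1.46 ± 0.23 at day 3. Its day 7 call (0.54) was lost without any one of day 0 replicate 1 or 3 or day 7 replicate 1 or 3 (0.37 to 0.61). Other clones averaged 11.2 to 13.1.

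Chrna7, which forms calcium-permeable channels by itself, moved in opposite directions. L2.3 read 39.3, 26.1 and 28.1 at day 0, 83.5, 85.6 and 90.0 at day 3 and 102, 74.8 and 76.0 at day 7, a rise of 1.49 ± 0.16 and 1.44 ± 0.16 without overlap. The second, dim probe set gave 0.11 ± 0.13 at day 7. Ge6 read 33.5, 35.7 and 31.7 at day 0, 54.2, 58.0 and 54.3 at day 3 and 31.3, 22.9 and 17.4 at day 7, so the day 3 rise of 0.72 was followed by a change of -1.26 ± 0.16 at day 7 against day 3. The Ge6 change of -0.54 at day 7 against day 0 was lost without day 7 replicate 3 (-0.33, adjusted p 0.0929). In Ctx8 Chrna7 averaged 14.3 at day 7 against 20.8 at day 0, a change of -0.53. Its day 3 call of -0.45 was lost without day 0 replicate 1 (-0.33).

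Chrnb1, the beta subunit of the muscle receptor, was above the floor mainly in L2.2, with 24.8 and 28.5 at day 0, 45.6, 28.7 and 30.8 at day 3 and 15.5, 19.2 and 21.5 at day 7. All day 7 arrays were below all day 0 arrays. The change at day 7 was -0.89 ± 0.14 against day 3 and -0.52 against day 0. The second of these was lost without day 0 replicate 3 (-0.42), as was the day 3 call of 0.37 without any one of day 0 replicate 1 or 3 or day 3 replicate 1 (0.16 to 0.47). The skeletal muscle list (5 of 6 genes measured) summed to 161 to 206 per array in L2.2 at day 3 and to 54 to 68 in the other groups, and its part in the Chrnb1 values was not tested. In L2.2 Chrna5 read 17.3 and 29.3 at day 0, and its means of 14.5 at day 3 and 13.3 at day 7 gave calls of -0.64 and -0.76 that were -0.26 (not called) and -0.38 without day 0 replicate 3.

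The muscarinic receptor gene Chrm3, coupled to phospholipase C, was bright at day 0 in Ge6, Ctx8 and L2.3 and was lost from all of them. L2.3 read 206, 180.4 and 174 at day 0, 10.5, 14.0 and 14.0 at day 3 and 10.7, 12.2 and 11.2 at day 7. Ctx8 read 145, 173 and 126 at day 0, 14.8, 14.0 and 14.0 at day 3 and 11.6, 12.1 and 12.9 at day 7. Ge6 read 98.6, 88.4 and 65.3 at day 0, 12.3, 11 and 11.1 at day 3 and 11.7, 10.2 and 12.0 at day 7. Every array after withdrawal was below the floor and every day 0 array of these clones was above it. The day 7 change was -4.04 ± 0.12 in L2.3 (adjusted p 5.5e-25), -3.59 ± 0.12 in Ctx8 and -2.88 ± 0.12 in Ge6, and the second probe set fell by 2.01, 1.63 and 0.91 in them. In L2.2 and Ge2 Chrm3 averaged 10.2 to 13.3 throughout with no call. Chrm5 averaged 16 to 22.1 over the groups, and Chrm1, Chrm2 and Chrm4 did not reach the floor.

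**Figure D5:**
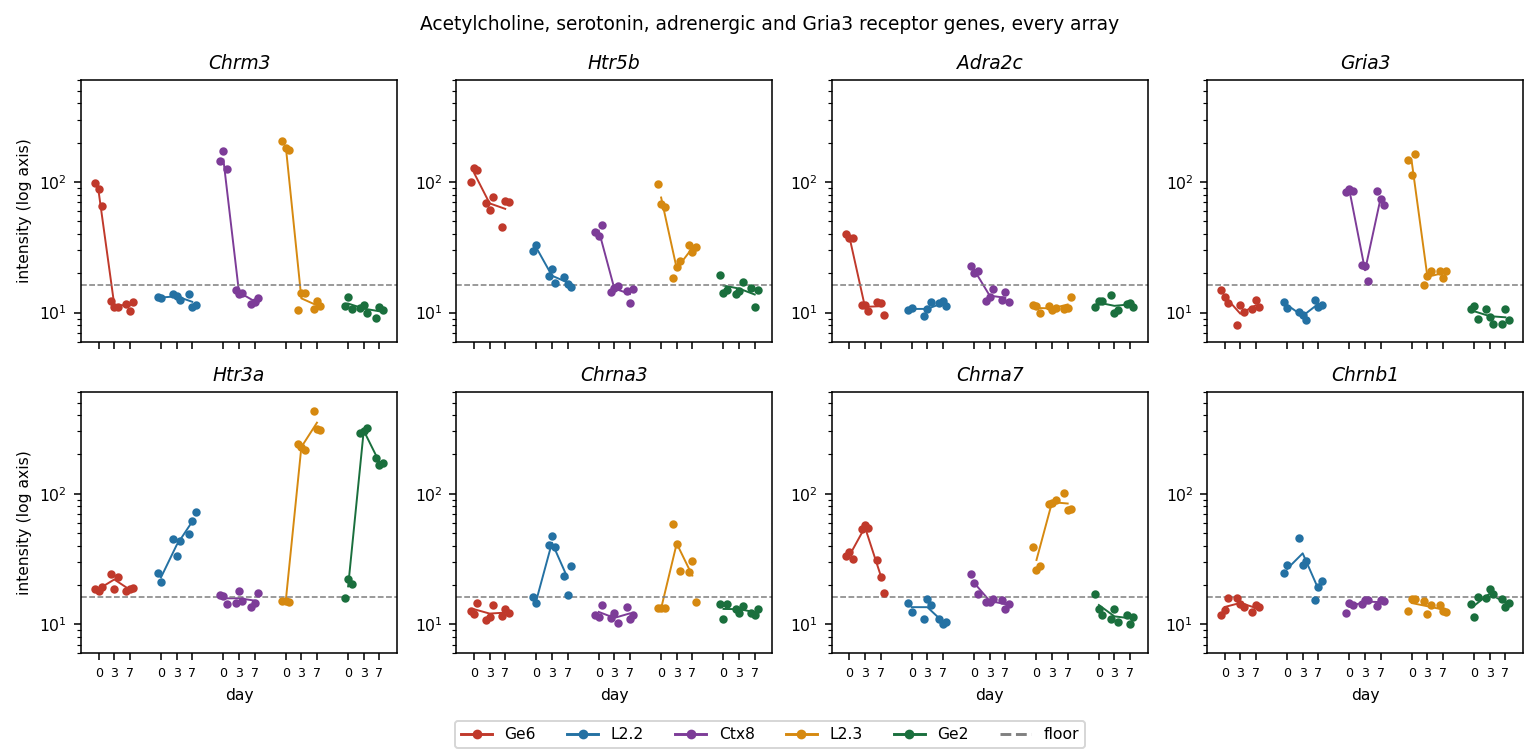
Intensity (log axis) of every array at days 0, 3 and 7, by clone, for 8 receptor genes that fell, peaked or rose in some clones, with lines through the group means and the floor of 16.3 dashed. Chrm3 is below the floor in all arrays at days 3 and 7, Gria3 dips at day 3 in Ctx8 and returns, and Htr3a rises in L2.3, Ge2 and L2.2.

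Among serotonin receptors, Htr3a encodes the subunit of the ionotropic receptor that can form channels by itself. L2.3 read 15.2, 15.2 and 14.9 at day 0, 240.2, 227 and 218 at day 3 and 434, 311 and 306 at day 7, a rise of 3.91 ± 0.13 at day 3 and 4.51 ± 0.13 at day 7 (adjusted p 3.22e-25). Ge2 read 16.1, 22.4 and 20.2 at day 0, 291, 301 and 321 at day 3 and 187, 165 and 173 at day 7, so the peak was at day 3 (3.97 ± 0.13) and the day 7 rise was 3.18 ± 0.13. L2.2 rose by 1.40 ± 0.15 at day 7, with 48.9, 62.0 and 72.9 against 24.9 and 21.0 at day 0. These 3 clones had no overlap between day 7 and day 0. In Ge6 and Ctx8 Htr3a averaged 15.2 to 22.1 with no call, and the partner gene Htr3b did not exceed a group mean of 14.2.

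Htr5b, a G protein-coupled serotonin receptor gene, fell in 4 clones. In Ge6 it read 45.5, 71.3 and 69.8 at day 7 against 100.4, 129 and 123 at day 0, a change of -0.94 ± 0.16. In L2.3 it read 32.7, 29.2 and 31.5 at day 7 against 96.4, 67.4 and 64.0 at day 0, a change of -1.26 ± 0.16 after -1.79 at day 3. It averaged 13.9 at day 7 against 42.4 at day 0 in Ctx8 (-1.61 ± 0.16) and 17.0 against 31.3 in L2.2 (-0.88 ± 0.18), with no call in Ge2. Htr1b and Htr4 lay near the floor, at group means of 14.2 to 17.5 and 14.3 to 18.5.

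The adrenergic receptor gene Adra2c, coupled to inhibition of adenylyl cyclase, was read above the floor at day 0 in Ge6 and Ctx8. Ge6 read 40, 37.1 and 37.1 at day 0, 11.4, 11.4 and 10.3 at day 3 and 12.0, 11.9 and 9.57 at day 7, a change of -1.78 ± 0.10 at day 3 and -1.77 ± 0.10 at day 7. Ctx8 read 12.5, 14.5 and 12.0 at day 7 against 22.9, 20.1 and 20.7 at day 0, a change of -0.71 ± 0.10, and the other clones averaged 10.6 to 11.9. Adrb1 averaged 12.5 to 21.2 over the groups and changed by -0.41 ± 0.11 in Ge2 at day 7.

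The 61 genes never above the floor had highest group means from 9.27 (Glra3) to 16.3 (Grin2d). Of these, 28 gave 41 calls against day 0, the largest 0.52 ± 0.09 for Grm4 in Ge6 at day 7. Such calls are differences between values the floor would remove, and no level was read from them. In all, 35 receptor genes were called in no clone at either day, and of these Gabrd and Htr1b were above the floor. The matching shares of all genes are not given here, so these counts are not read as a trait of receptor genes.

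Between days 3 and 7, Ge6 had the most calls among receptor genes, as it had among all genes. There 15 were higher and 4 lower at day 7 than at day 3, against 18.4% and 26% of all genes (44.4% in all), with Gria1 and Gria2 among the higher ones. The counts were 5 and 4 in L2.2 (8.82% and 8.89% of all genes, 17.7% in all), 9 and 2 in Ctx8 (11.9% and 10.5%, 22.3% in all), 7 and 3 in L2.3 (9.58% and 5.87%, 15.4% in all) and 2 and 4 in Ge2 (9.02% and 7.68%, 16.7% in all). In Ctx8 the total was 7 in place of 11 without day 3 replicate 2 or day 7 replicate 3, and in L2.3 it was 5 in place of 10 without day 3 replicate 1.

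Before withdrawal, each clone was set against the mean of the other 4, comparisons that share arrays. L2.3 had 10 receptor genes higher and 2 lower (17.2% and 24.2% of all genes, 41.4% in all), led by Gria3 (2.87), Gria4 (2.37), Chrm3 (2.34) and Gria2 (1.98) on the log2 scale. Ctx8 had 11 higher and 2 lower (18.4% and 24.3%, 42.8% in all), with Gria3 at 2.00, Gria2 at 1.94, Chrm3 at 1.91 and Gabrg1 at 1.5. Ge6 had 7 higher and 6 lower (20.3% and 18.6%, 39% in all), with Htr5b at 1.72, Adra2c at 1.54 and Chrm3 at 0.88. L2.2 had 3 higher and 12 lower (22.3% and 18.7%, 41% in all), the higher ones including Chrnb1 at 0.94 ± 0.13, while Gria2 stood at -2.24 and Chrm3 at -2.46. Ge2 had 3 higher and 13 lower (24.5% and 20.8%, 45.3% in all), with Gria2 at -2.21 and Chrm3 at -2.66.

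At day 7 Ge6 had 20 receptor genes higher and 8 lower than the mean of the others, where 26% and 31.3% of all genes were called (57.3% in all). Ctx8 had 15 and 9 (24.8% and 28.8%, 53.6% in all), L2.3 11 and 12 (25.9% and 20.3%, 46.2% in all), L2.2 3 and 16 (24.5% and 20.7%, 45.2% in all) and Ge2 3 and 18 (29.5% and 29.2%, 58.6% in all). Of the 20 higher in Ge6, 10 were genes never above the floor. Gria2 in Ge2 was lower by 4.02 ± 0.13 on the log2 scale than the mean of the other clones, and in Ctx8 it was higher by 2.82 ± 0.13. When the day 7 change itself was set against the average change of the 4 other lines, it was more positive for 15 receptor genes and more negative for 8 in Ge6 (22.6% and 29.3% of all genes, 51.9% in all). These counts were 5 and 10 in L2.2 (19.8% and 19%, 38.8% in all), 10 and 9 in Ctx8 (20.7% and 20.1%, 40.8% in all), 5 and 10 in L2.3 (27.3% and 18.9%, 46.3% in all) and 7 and 13 in Ge2 (25.1% and 27.5%, 52.6% in all). An F test found that the day 7 change differed among the clones for 32 of the 92 receptor genes, beside 71.5% of all genes.

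Proteins that assemble, cluster or modulate these receptors were followed in a list of 67 partner genes, of which 55 were measured. At day 7, 22 were higher and 11 lower in Ge6, 33 of 55 called beside 58.9% of all genes, and 20 and 8 in L2.2, 28 called beside 51.8%. Ctx8 had 19 and 11 (30 called, 55.9% of all genes), L2.3 16 and 16 (32 called, 48.8%) and Ge2 17 and 11 (28 called, 60.3%). Median changes were 0.10, 0.10, -0.03, -0.04 and -0.01 in Ge6, L2.2, Ctx8, L2.3 and Ge2, and values follow for genes among the 3 largest called rises or falls of a comparison. In Ge6 the largest rises were in Tmem35a, the nicotinic receptor assembly factor also called NACHO (5.22 ± 0.14), Olfm1, a secreted protein of AMPA receptor complexes (4.71 ± 0.09), and Shank1, a scaffold of excitatory synapses (3.48 ± 0.14). Tmem35a also rose by 2.87 in L2.2 and 2.84 in Ctx8 and stayed at 12.4 to 12.9 in Ge2. Ly6h, a prototoxin that binds nicotinic receptors, rose by 3.14 in L2.2, 3.34 in Ctx8, 2.99 in L2.3 and 2.58 in Ge2 at day 7 against day 0, and in Ge6 by 3.47 at day 7 against day 3. Nptx1, a pentraxin that clusters AMPA receptors, rose by 5.02 ± 0.15 in Ge2, with means of 15.6 at day 0, 89.8 at day 3 and 505 at day 7, and by 3.08 in Ctx8. Homer1 and Homer2, scaffolds of metabotropic glutamate receptors, fell by 1.37 and 1.41 on the log2 scale in Ge6, by 1.57 and 1.24 in L2.2 and by 1.17 and 1.13 in Ge2. Neto2, an auxiliary subunit of kainate receptors, fell by 1.60 in L2.3 and by 1.62 in Ge2, both among the 4 clones in which the kainate gene Grik4 rose.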

How the data were processed

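RNA of 44 sister cultures of 5 clones was measured on 1 array each. Groups of clone and day came from the labels. The deposited table gives linear intensity values, which the authors obtained with GCOS and RMA, a method that corrects and normalizes arrays and summarises probes, per the submitters' processing notes. The versions are not given in the sources used here. Because log2 values had been assumed in the design but the deposited intensities ran from 6.39 to 12734, log2 was taken first, with no pseudocount and no further normalization. Array medians were 24.2 to 28.9. Arrays give no counts, and their number limits the precision.

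Of 24183 probe sets, 17547 had 1 gene, 213 several and 6423 none. Symbols were updated by gene ID for 17450 and kept for 97. The 92 receptor genes came from 131 probe sets. The rule allowed every receptor gene to be named, described in full for up to 10 called rises and 10 called falls per comparison, and up to 3 called partner genes in each direction. One model of 15 group means was fitted over all genes with limma 3.58.1 (lmFit, eBayes) in R 4.3.3, with 29 residual degrees of freedom, and tested on simulated data. Day, clone and change contrasts were two-sided with Benjamini-Hochberg adjustment over 12749 genes. Replicates were sister cultures, so p-values measure the spread between cultures of 1 clone. Alternatives were quantile normalization, one median, leaving out dim genes, the mean of probe sets, a replicate block, array weights, the compared groups alone and leaving out each array. Figures used matplotlib 3.10.9. Receptor genes, partner and marker lists were chosen with earlier results of these data known.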

Additional observations from a re-analysis of the deposited data

Results flagged for a closer look

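The receptor genes Gria2, Gria4, Chrna7, Grin1 and Grm3 were called higher in some clones and lower in others by day 7. For each gene, the clone with the largest called rise was set against the clone with the largest called fall. Because that pair was picked from these same changes, a passing limma test of the difference was nearly fixed in advance. The adjusted p-values do not allow for the choice of pair and are given as description. The Gria2 change was 2.35 in L2.2 and -0.70 in Ge2, a difference of 3.05 ± 0.25 (SE, log2 scale, adjusted p 1.13e-12), although the second Gria2 probe set was not called in Ge2. Gria4 changed by 1.99 in Ge6 and by -0.61 in L2.3, a difference of 2.60 ± 0.17 (adjusted p 2.41e-15). For Chrna7 the change was 1.44 in L2.3 and -0.54 in Ge6, and the difference was 1.98 ± 0.23 (adjusted p 3.33e-09). Grin1 differed by 2.05 ± 0.17 (adjusted p 1.3e-12), with 1.76 in Ge6 and -0.29 in Ge2. Grm3 differed by 0.92 ± 0.13 (adjusted p 3.14e-07), with 0.64 in Ge6 and -0.28 in Ctx8. The negative sides of Chrna7, Grin1 and Grm3 were each lost in the fit without some single array.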

How the results depend on the processing

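The 31 counts of called receptor genes stayed within 1.5 times their reported value under quantile normalization, averaging of probe sets, the replicate block and array weights. With all arrays shifted to one median, the day 3 counts became 29 (L2.2), 41 (Ctx8) and 37 (Ge2), the day 7 counts 32 in Ge6, 36 in L2.2, 56 in Ctx8, 36 in L2.3 and 40 in Ge2, and the day 0 count of Ctx8 against the other clones 20. Without dim genes the day 3 counts were 13 in Ge6 and 9 in Ge2, and 15 genes differed in the day 7 change of Ge6 from the other clones. With only the compared groups fitted, 3 genes were called in Ge2 at day 7 against day 3. Leaving out 1 array gave 7 to 14 for L2.2 at day 3, 7 to 11 for Ctx8 and 5 to 11 for L2.3 at day 7 against day 3. The replicate block gave day 7 counts of 21 in Ge6, 23 in L2.2, 20 in Ctx8, 19 in L2.3 and 13 in Ge2. Same-numbered arrays of a clone deviated together weakly at most (r -0.0947 to 0.1699, 3 of 43 pairs over 0.1). For arrays of different number, r was -0.1306 to 0.1065, with 1 of 86 pairs over 0.1. In Ge2 all same-numbered pairs were positive (0.0049 to 0.1699), so some shared deviation there is possible. The numbers were not taken as pairs in the main fit. Of 508 called gene results, 24 were lost under quantile normalization, 24 under one median, 25 under the mean of probe sets, 5 under the replicate block and 23 under array weights, 28 of 232 with only the compared groups, 0 of 417 without dim genes and 412 of 6717 fits that left out 1 array; none reversed. The causes were not tested. The floor is no background measure, so presence of dim genes could not be judged, and no batch information was used.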

Other observations

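Several receptor genes are neighbours in the rat genome (RefSeq, build GRCr8) with no protein-coding gene between them, and their values stand side by side here as description only. Gria2 and Glrb are adjacent on chromosome 2. In Ctx8 at day 7 against day 0 they changed by 1.45 and 3.98 on the log2 scale, whereas in L2.2 Gria2 rose by 2.35 and Glrb was not called. Chrna5, Chrna3 and Chrnb4 follow each other on chromosome 8. In L2.2 at day 3 Chrna3 rose by 1.46 while Chrna5 changed by -0.64, which was -0.26 without day 0 replicate 3. Chrnb4 was also called higher there, but its mean of 15.6, its highest in any group, was below the floor. Htr3a and Htr3b are adjacent on the same chromosome, and Htr3a reached 350.3 in L2.3 at day 7 while Htr3b did not exceed 14.2 in any group. Gabrb1 and Gabra4 are adjacent on chromosome 14, where Gabrb1 averaged 31.2 in Ctx8 at day 7 and Gabra4 did not exceed 14.1.

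The glutamatergic neuron list (6 genes) summed to 676 to 723 per array in L2.3 at day 7, to 241 to 310 in L2.2 and to 67 to 77 in the other clones. L2.2 and L2.3 were also the clones with Chrna3 above the floor, at day 3 and day 7. The relation between that list and Chrna3 was not tested.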
